A study of Mus musculus with 80 samples.

Results

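The 10 immediate early genes described here, Fos, Fosb, Jun, Junb, Egr1, Ier2, Ier3, Ier5, Klf6 and Ccn1, were taken by symbol from a table of 14560 mouse liver genes. All 10 were present, and all passed the filter on low values. Immediate early genes are switched on within minutes to hours of a stimulus without new protein synthesis, through transcription factors that already sit in the cell and are activated by mitogen- and stress-activated kinases. Many of their products are themselves transcription factors: FOS and JUN proteins pair to form AP-1, and EGR1 and KLF6 are zinc finger factors. In liver they are known for their rapid and usually brief rise after partial hepatectomy and toxic injury.

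The livers came from C57BL/6J mice, females 8 weeks old, that were Adamts12-/- or wild type. Adamts12 encodes a secreted metalloproteinase, and the labels name the knockout by its allele only, with no statement of which part of the gene is missing. Each mouse received 1 intraperitoneal injection of carbon tetrachloride (CCl4, 0.3 ml per kg body weight, at 3% by volume in olive oil) or of olive oil alone as vehicle. CCl4 is a hepatotoxin that hepatocytes activate through cytochrome P450. The liver was taken after 4 h, 12 h, 24 h or 7 days. Each of the 16 groups of genotype, treatment and time held 5 livers, and every mouse received oil. The question of the design is whether loss of Adamts12 alters the response of the liver to acute injury.

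Of the 80 libraries 78 were used, so both knockout groups of 12 h hold 4 livers. The 2 libraries left out, knockout CCl4 replicate 5 and knockout vehicle replicate 1 of 12 h, lay nearer to the centre of the other treatment over all genes other than the 10. The CCl4 library had a Pearson r of 0.928 with CCl4 and 0.987 with vehicle, and the vehicle library 0.989 with CCl4 and 0.919 with vehicle. Among the kept knockout livers of 24 h after CCl4, replicate 2 lay marginally nearer to the vehicle centre (r 0.963 with CCl4, 0.966 with vehicle) and replicate 4 was only slightly nearer to its own (0.966 with CCl4, 0.954 with vehicle). Wild-type CCl4 replicate 4 of 24 h was also about as near to vehicle as to its own treatment (r 0.931 with CCl4, 0.927 with vehicle). Totals recovered from the values, over the genes of the table only, were 18648557 to 64487370 reads per library. At this depth 3 reads are worth 1.16 to 6.02 normalized counts. Adamts12 had 8.2 ± 5.5 normalized counts in the knockout livers (SD, n = 38) and 23.6 ± 16.6 in the wild-type livers (SD, n = 40), so a low signal remained in the knockout. Markers of hepatocytes, the main cell of liver, stood far above those of any other cell type. In bulk liver, fewer cells of a type and less RNA per cell cannot be told apart.

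The 10 genes are short. Their median span in the GENCODE M21 annotation of GRCm38 was 3330 bases, against 24333 bases over 13021 genes of the table with a coding transcript. Their 3' untranslated regions carried the AU-rich pentamer ATTTA, an element known for rapid mRNA decay, in 9 of 10 genes (90%, all but Ier2) against 64.4% of all such genes, at a median of 2.75 against 1.2 copies per kilobase. The promoters of Fos, Jun, Klf6 and Ccn1 are printed to show some sites of the kind through which such genes are known to be switched on. They are the 250 bases before the RefSeq start site in GRCm38.p6, read in the direction of transcription, and capitals mark the matches of TGACGT, TGACATCA, the heat shock element-like pairs and the MEF2 site described below, while CCAAT and TATAAA are left in lower case. In each window the search covered both strands. The motifs were chosen after the letters were read, so their presence is a description only.
Fos promoter, chr12:85473640-85473889, plus strand: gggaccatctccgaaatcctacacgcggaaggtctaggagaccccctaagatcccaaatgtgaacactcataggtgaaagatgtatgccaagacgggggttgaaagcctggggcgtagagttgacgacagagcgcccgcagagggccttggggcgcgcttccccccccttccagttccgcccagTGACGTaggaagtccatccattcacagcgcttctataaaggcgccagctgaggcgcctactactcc
Jun promoter, chr4:95052223-95052472, minus strand: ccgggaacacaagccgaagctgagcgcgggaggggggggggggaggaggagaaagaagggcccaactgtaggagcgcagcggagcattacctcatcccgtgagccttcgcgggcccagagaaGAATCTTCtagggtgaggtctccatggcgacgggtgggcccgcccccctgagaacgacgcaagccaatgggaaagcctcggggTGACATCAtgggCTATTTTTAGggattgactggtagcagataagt
Klf6 promoter, chr13:5861239-5861488, plus strand: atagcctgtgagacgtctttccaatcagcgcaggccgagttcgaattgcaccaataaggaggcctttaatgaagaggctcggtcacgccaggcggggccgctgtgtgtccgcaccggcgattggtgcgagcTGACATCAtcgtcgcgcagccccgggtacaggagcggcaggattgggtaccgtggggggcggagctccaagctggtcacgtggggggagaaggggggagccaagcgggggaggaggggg
Ccn1 promoter, chr3:145649986-145650235, minus strand: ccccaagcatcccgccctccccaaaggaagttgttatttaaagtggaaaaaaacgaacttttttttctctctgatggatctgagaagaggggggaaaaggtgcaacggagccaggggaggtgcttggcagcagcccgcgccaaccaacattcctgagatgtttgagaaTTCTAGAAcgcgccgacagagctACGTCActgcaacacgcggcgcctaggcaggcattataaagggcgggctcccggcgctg

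RefSeq promoters of 300 bases (250 before to 50 after the start site) were at hand for 8 of the 10 members, all but Egr1 and Ier2. The core of the cyclic AMP response element, TGACGT, was found in Fos (61 to 66 bases before the start) and, on the other strand, in Ccn1, and in 7.51% of 32851 promoters. The sequence TGACATCA, a site of the JUN and ATF2 type, was found in Jun (38 to 45 bases before the start) and in Klf6, and in 3.62% of promoters. Short heat shock element-like pairs, GAANNTTC in Jun and TTCNNGAA in Ccn1, occurred in 7.86% and 8.52% of promoters, and the MEF2 site of Jun, capitalized closest to its start, in 3.19%. The kappaB-like GGANTTTCC was found in Ier3 alone among the 8 members, and in 1.25% of promoters. CCAAT was found in 5 of the 8 (Jun, Junb, Ier3, Ier5 and Klf6) and in 37.4% of promoters, and TATAAA in Fos, Junb and Ccn1 and in 13.6% of promoters. The AP-1 site TGANTCA and the CArG box, the binding site of serum response factor, had no match in these 8 windows, with 7.81% and 1.63% of all promoters holding one. Sites outside these windows, and any in Egr1 or Ier2, were not searched, so the genes may hold them elsewhere. No pair of the capitalized matches overlaps.

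CCl4 raised nearly all of the 10 genes at 4 h in both genotypes, most were higher at 12 h and 24 h as well, and none was called at 7 days. Changes are log2 differences of CCl4 minus vehicle on the log2(value + 1) scale ± SE, which understates the change of low genes, and a gene is called where the limma p adjusted over all 14558 tested genes is under 0.05. Each SE rests on 1 spread per gene shared by all 16 groups, so SE and p are too small where a compared group is uneven. In knockout CCl4 livers the log2 SD was 2.28 for Fos at 12 h, and 1.74 for Klf6 and 2.07 for Ier3 at 24 h. The shared SD of these genes was 0.898, 0.586 and 0.834. In knockout livers 9, 7, 7 and 0 of the 10 genes rose at 4 h, 12 h, 24 h and 7 days, against 21.1%, 23.6%, 21.1% and 0.309% of all tested genes called higher. The gene Junb fell at 24 h, where 23.0% of all genes fell. In wild-type livers 9, 7, 8 and 0 rose and none fell, against 23.1%, 29.0%, 26.2% and 0.0275% of all genes called higher. The median change over the 10 was 3.29, 2.04, 2.19 and -0.22 in knockout livers and 3.42, 2.02, 2.29 and -0.25 in wild-type livers at 4 h, 12 h, 24 h and 7 days, while the median over all genes lay between -0.05 and 0.04. All CCl4 livers lay above all vehicle livers for 9, 5, 4 and 0 of the 10 in the knockout and for 9, 6, 8 and 0 in wild type. The same held for 17.1%, 18.6%, 10.1% and 1.13% of all genes in the knockout and for 19.0%, 21.4%, 14.3% and 2.36% in wild type. With all 80 libraries the knockout count at 12 h was 5. When only the groups compared were fitted, 5 instead of 8 genes were called in the knockout at 24 h, with Junb among those lost. After quantile normalization the share of higher genes among all called ones in the knockout at 4 h was 44.3%, against 54.5% without it. In both, 9 of the 10 genes were higher.

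**Figure D1:**
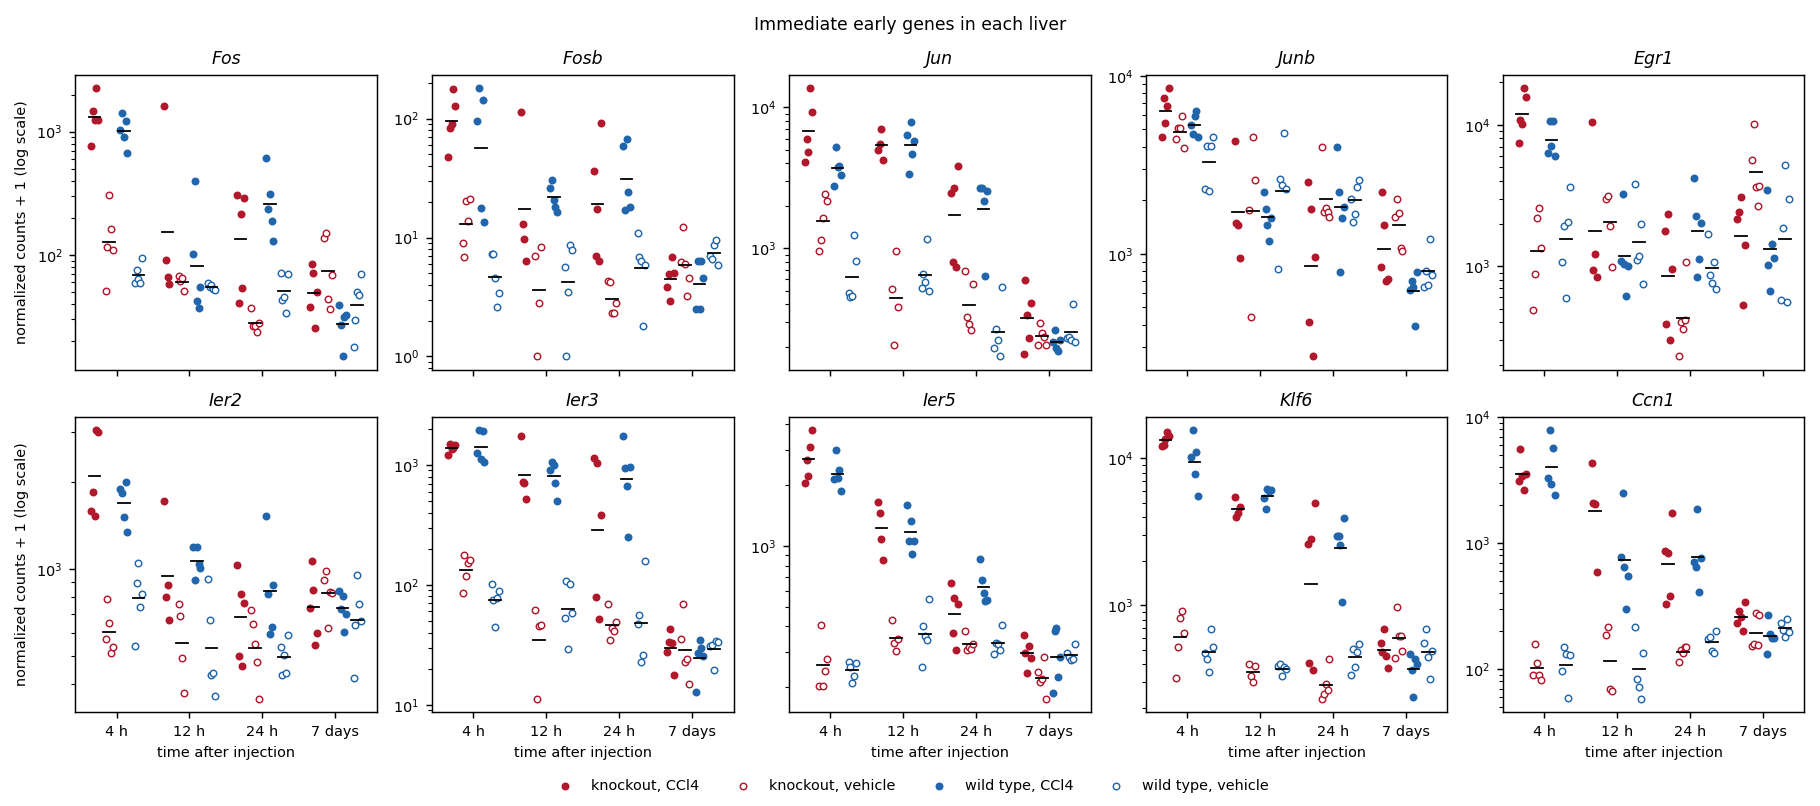
Normalized counts plus 1 on a log scale (vertical) of each of the 10 genes against time after injection (horizontal). Each point is 1 liver of the 78 kept, filled for CCl4 and open for vehicle, red for knockout and blue for wild type, and bars are the group means on the log scale. At 4 h the filled points lie above the open ones of the same genotype for all genes but Junb, and at 7 days filled and open points overlap for every gene.

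Fos (ENSMUSG00000021250, chr12:85473890-85477273) encodes the FOS partner of JUN. At 4 h it had 769.6, 1477, 1233, 2263 and 1245 normalized counts in the 5 knockout CCl4 livers, against 50.1, 115, 305.5, 160.0 and 109 in the knockout vehicle livers. Wild-type CCl4 livers had 1023, 1421, 906, 1209.7 and 671.5, against 57.7, 74.7, 63.1, 57.8 and 93.7 in wild-type vehicle livers. Neither genotype had overlapping groups at 4 h, and Fos was higher by 3.38 ± 0.55 in the knockout (limma adjusted p = 7.16e-07) and 3.87 ± 0.55 in wild type (limma adjusted p = 2.11e-08). At 12 h knockout CCl4 livers had 1611, 90.1, 64.7 and 56.8 against 66.4, 59.9, 64.4 and 49.5 with vehicle. Among wild-type CCl4 livers replicate 2 had 398 and the median was 53.6, against 50.9 to 58.1 with vehicle. Replicate 1 of the knockout and replicate 2 of wild type were far above the rest, and the other CCl4 livers lay near the vehicle livers or moderately above them. Neither change was called (1.34 ± 0.62, limma adjusted p = 0.0667, in the knockout and 0.56 ± 0.55, 0.394, in wild type). Without knockout replicate 1 the knockout change at 12 h was 0.21, and without wild-type replicate 2 the wild-type change was -0.02. The knockout change was called when any 1 of the low CCl4 replicates 2, 3 or 4 was left out (1.59 to 1.81, limma adjusted p = 0.0204 to 0.048). At 24 h Fos was again higher, with 306, 39.7, 214, 53.3 and 291 in knockout CCl4 livers against 22.8 to 36.3 with vehicle, and 614, 235, 314, 188 and 128 in wild-type CCl4 livers against 33.1 to 70.9 with vehicle. All CCl4 livers were above all vehicle livers in both genotypes, with changes of 2.25 ± 0.55 in the knockout and 2.34 ± 0.55 in wild type (limma adjusted p = 0.000627 and 0.000282).

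Fosb (ENSMUSG00000003545, chr7:19302696-19310051), a FOS paralogue with the same partners, was the scarcest of the 10. Vehicle livers of both genotypes had 0.0 to 19.9 normalized counts, which overlaps the value of 3 reads. At 4 h knockout CCl4 livers had 46.4, 82.3, 88.5, 175.5 and 126 against 8.0, 5.9, 19.4, 12.8 and 19.9 with vehicle, and wild-type CCl4 livers had 94.3, 179.8, 16.6, 143 and 12.4 against 6.3, 6.3, 3.6, 1.6 and 2.4 with vehicle. Wild-type CCl4 replicates 3 and 5 were far below the other 3, yet every CCl4 liver was above every vehicle liver in both genotypes. Fosb was called at 4 h (2.88 ± 0.64 in the knockout, 3.61 ± 0.64 in wild type), 12 h (2.27 ± 0.71 and 2.37 ± 0.64 for knockout and wild type) and 24 h (2.65 ± 0.64 and 2.51 ± 0.64 for knockout and wild type). At 12 h knockout CCl4 livers had 113, 11.9, 8.7 and 5.4 against 6.0, 0.0, 1.8 and 7.4 with vehicle, so 1 liver was high and the groups overlapped. Without that liver the change was 1.36 (limma adjusted p = 0.109), without knockout vehicle replicate 3 it was 1.65 (0.0682), and with all 80 libraries it was 1.39 (0.135).

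Jun (ENSMUSG00000052684, chr4:95049034-95052222), whose product pairs with FOS or ATF proteins, was high from 4 h to 24 h. At 4 h it had 4093, 5995.5, 4798.5, 13759 and 9245 in knockout CCl4 livers against 956.5, 1135.5, 1642, 2431 and 2173 with vehicle, and 2751, 5251, 3795, 3859.7 and 3313 in wild-type CCl4 livers against 481, 447, 454, 1242 and 809 with vehicle. At 12 h it had 5013, 5511, 7054 and 4265 in knockout CCl4 livers against 516, 206, 951 and 379.6 with vehicle, and 6361, 3356.5, 7926, 4637 and 5759.6 in wild-type CCl4 livers against 520.2, 653, 576, 1161.5 and 493 with vehicle. No groups overlapped at either time. The change was 2.13 ± 0.38, 3.60 ± 0.43 and 2.12 ± 0.38 at 4 h, 12 h and 24 h in the knockout and 2.56 ± 0.38, 3.06 ± 0.38 and 2.92 ± 0.38 in wild type (limma adjusted p from 2.27e-10 to 6.42e-06). At 24 h knockout CCl4 replicates 2 and 4 (796.7 and 738) were close to the highest vehicle liver (688), the other 3 lay between 2483 and 3824, and all 5 were still above all 5 vehicle livers. With replicate 2 or 4 left out, the knockout changes at 24 h were 2.40 or 2.43 for Jun, 2.68 or 2.57 for Fos and 3.02 or 3.05 for Fosb. In wild type, CCl4 replicate 4 (634) stood below the other 4 (2165 to 2695), with 169 to 526 in vehicle livers.

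Junb (ENSMUSG00000052837, chr8:84974484-84978718), a JUN paralogue that also restrains JUN activity, was the exception among the 10. Its groups overlapped in every comparison of CCl4 with vehicle. At 4 h it had 4553, 7489, 5414, 6747 and 8558 in knockout CCl4 livers against 4437, 5097, 5067, 5919 and 3929 with vehicle, and 5269.7, 4741, 5942, 6345.5 and 4517 in wild-type CCl4 livers against 2326.5, 4021, 2261, 4038 and 4553 with vehicle. These differences were not called (0.40 ± 0.43 in the knockout, limma adjusted p = 0.498, and 0.69 ± 0.43 in wild type, 0.195), although the wild-type one was called when only the 2 groups were fitted (limma adjusted p = 0.0115). At 24 h Junb had 2517, 409.7, 1784, 263.5 and 956 in knockout CCl4 livers against 3963, 1718.5, 1800.3, 1725 and 1608 with vehicle, and was called lower (-1.24 ± 0.43, limma adjusted p = 0.0151). The call was lost without CCl4 replicate 2 (-0.97, 0.067), CCl4 replicate 4 (-0.81, 0.116) or vehicle replicate 1 (-0.996, 0.0697), and when only the 2 groups were fitted (0.108). Wild-type CCl4 livers of 24 h had 787 to 4004 against 1502 to 2599.7 with vehicle, a change of -0.13 ± 0.43.

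Egr1 (ENSMUSG00000038418) encodes a zinc finger factor that serum response factor and ERK signalling induce. It had 7474, 10798, 10129, 18211 and 15618 normalized counts in knockout CCl4 livers of 4 h against 491, 880.1, 2200.5, 2576 and 1341 with vehicle, and 6278, 10636, 7072, 10621 and 5977 in wild-type CCl4 livers against 1075, 1914, 597, 2047 and 3617 with vehicle. The groups did not overlap in either genotype, and the change was 3.22 ± 0.59 in the knockout and 2.34 ± 0.59 in wild type (limma adjusted p = 7.92e-06 and 0.000805). At 12 h Egr1 was no longer called. Knockout CCl4 livers had 10406, 941, 1213.5 and 830.0 against 2976, 3117, 1932 and 981 with vehicle, so replicate 1 was at the level of 4 h and the other 3 were below 3 of the 4 vehicle livers. The change was -0.21 ± 0.66 with replicate 1 and -1.06 without it (limma adjusted p = 0.182), and -0.34 ± 0.59 in wild type. At 24 h the changes of 0.99 ± 0.59 in the knockout and 0.88 ± 0.59 in wild type were not called.

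Klf6 (ENSMUSG00000000078, chr13:5861482-5870394), a Krüppel-like zinc finger factor, and Ccn1 (ENSMUSG00000028195, chr3:145646976-145649981), a secreted matricellular protein that AP-1 and the Hippo effector YAP are known to induce, had the largest changes at 4 h. Klf6 had 12076, 12328, 13608, 15132 and 14239 in knockout CCl4 livers against 319, 521, 816, 915.5 and 648 with vehicle, and 10295, 15536, 7844, 11038 and 5578 in wild-type CCl4 livers against 471, 428, 349.5, 686 and 516 with vehicle. Ccn1 had 3104, 5609, 3379, 2661 and 3568 in knockout CCl4 livers against 88.2, 158, 111, 89.1 and 80.6 with vehicle, and 3288, 7847, 2934, 5642 and 2389 in wild-type CCl4 livers against 95.4, 149, 131, 57.8 and 128.5 with vehicle. Every CCl4 liver was many times above every vehicle liver for both genes. Klf6 changed by 4.47 ± 0.36, 3.69 ± 0.40 and 2.29 ± 0.36 at 4 h, 12 h and 24 h in the knockout and by 4.31 ± 0.36, 3.91 ± 0.36 and 2.48 ± 0.36 in wild type, with limma adjusted p of 9.17e-17 and 3.62e-16 at 4 h. Ccn1 changed by 5.10 ± 0.40, 3.95 ± 0.45 and 2.33 ± 0.40 in the knockout and by 5.21 ± 0.40, 2.86 ± 0.40 and 2.24 ± 0.40 in wild type, with limma adjusted p of 6.01e-17 and 2.12e-17 at 4 h. The knockout livers split at 24 h. Klf6 had 2634, 402.5, 2818, 364 and 4963 in knockout CCl4 livers against 229.7 to 432 with vehicle, so replicates 2 and 4 were within the vehicle range. Ccn1 had 865, 328, 831, 379.7 and 1719 against 112 to 149.5, with replicates 2 and 4 lowest but above it. Without replicate 2 the knockout changes at 24 h were 2.74 for Klf6 and 2.60 for Ccn1, and without replicate 4 they were 2.78 and 2.54. In either case 7 of the 10 genes were called, Junb being the one lost.

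Ier2 (ENSMUSG00000053560, chr8:84661331-84662852) and Ier5 (ENSMUSG00000056708, chr1:155096361-155099636) encode related nuclear proteins, of which IER5 is known as a target and activator of heat shock factor, and Ier3 (ENSMUSG00000003541, chr17:35821684-35822923) encodes a regulator of apoptosis that NF-kappaB induces. Ier5 had the lowest residual SD of the 10 over all groups together (0.311 on the log2 scale), though not in every group. At 4 h it had 2047, 2653.5, 2232, 3079 and 3735 in knockout CCl4 livers against 202.5, 404.8, 201.3, 240.0 and 276.1 with vehicle, and 2145, 2991, 2174, 2373 and 1866 in wild-type CCl4 livers against 208 to 265 with vehicle. Its changes of 3.39 ± 0.19 in the knockout and 3.24 ± 0.19 in wild type had the smallest limma adjusted p of the 10 (2.47e-23 and 2.19e-22). They were 1.81 ± 0.22 and 1.67 ± 0.19 at 12 h and 0.50 ± 0.19 and 0.92 ± 0.19 at 24 h, for knockout and wild type. The knockout call at 24 h (limma adjusted p = 0.0299) was lost in 6 of 10 fits that left out 1 liver. These were the fits without CCl4 replicate 1 (0.38, limma adjusted p = 0.134), 3 (0.44, 0.0831) or 5 (0.46, 0.0717) and without vehicle replicate 2 (0.48, 0.0575), 3 (0.49, 0.0501) or 4 (0.48, 0.0553). It was also lost with all 80 libraries (0.50, 0.0802).

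Ier3 had 1200.2, 1499.6, 1361, 1391 and 1459 in knockout CCl4 livers of 4 h against 84.2, 175, 117, 150.2 and 159 with vehicle, and 1255, 1943, 1130.1, 1904 and 1054 in wild-type CCl4 livers against 102, 73.9, 43.2, 77.1 and 87.7 with vehicle. At 24 h knockout CCl4 livers had 1144, 78.1, 1041, 51.2 and 380.2 against 68.1, 33.4, 42.3, 40.5 and 47.9 with vehicle, and wild-type CCl4 livers had 1749.7, 948, 667, 249.9 and 964 against 46.5, 55.3, 21.8, 24.8 and 157 with vehicle. The groups did not overlap at 4 h in either genotype, and at 24 h knockout CCl4 replicate 4 was within the vehicle range and replicate 2 just above it. Its change was 3.37 ± 0.51, 4.57 ± 0.57 and 2.63 ± 0.51 at 4 h, 12 h and 24 h in the knockout and 4.23 ± 0.51, 3.68 ± 0.51 and 4.01 ± 0.51 in wild type, all called. Without knockout CCl4 replicate 2 or 4 the change at 24 h was 3.09 or 3.24. Ier2 had the smallest changes among the called genes at 4 h. It had 1584, 1854, 1526, 3028.5 and 2997 in knockout CCl4 livers of 4 h against 569.5, 787, 648, 510.2 and 537 with vehicle, and 1894, 1829.5, 1513, 2011 and 1342 in wild-type CCl4 livers against 541, 895, 1050.4, 741 and 821 with vehicle, with no overlap. The change was 1.80 ± 0.24 and 1.10 ± 0.24 at 4 h, 0.77 ± 0.27 and 1.00 ± 0.24 at 12 h and 0.36 ± 0.24 and 0.76 ± 0.24 at 24 h, for knockout and wild type. Of these the knockout value at 24 h was not called (limma adjusted p = 0.24). The knockout call at 12 h was lost without CCl4 replicate 1 (0.48, 0.152) or vehicle replicate 5 (0.58, 0.103) and with all 80 libraries (0.41, 0.283). The wild-type call at 24 h was lost without CCl4 replicate 1 (0.54, limma adjusted p = 0.0658).

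The wild-type vehicle livers of 24 h need a further value. By the mouse numbers in the labels, 4 of these 5 vehicle mice were numbered below 7000 and none of the 5 CCl4 mice of 24 h was. Only 1 vehicle liver was left when such mice were left out of all groups, its spread being assumed to equal that of the other groups. Then 2 of the 10 genes, Klf6 (2.18) and Ccn1 (1.95), were called at 24 h in wild type (limma adjusted p = 0.0164 and 0.042), and Jun (1.86) and Ier3 (2.29) had limma adjusted p of 0.0511 and 0.0654. What the numbers stand for is not given in the labels, and their part in the result was not tested.

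At 7 days the changes ran from -1.49 (Egr1) to 0.43 (Jun) in the knockout and from -0.86 (Fosb) to 0.14 (Ier2) in wild type. None was called by limma, with 2 genes in the knockout and 0 in wild type at an unadjusted p under 0.05, and groups overlapped for all 10. The number called by limma adjusted p over all genes was also small, 0.694% in the knockout and 0.055% in wild type. The share of all genes at an unadjusted p under 0.05 was not counted. Egr1 in the knockout had 2148, 2416, 3098, 527 and 1405.5 normalized counts in CCl4 livers, mostly below the vehicle livers at 5621, 10078, 3656, 2681 and 3711. The groups overlapped by 1 liver on each side.

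**Figure D2:**
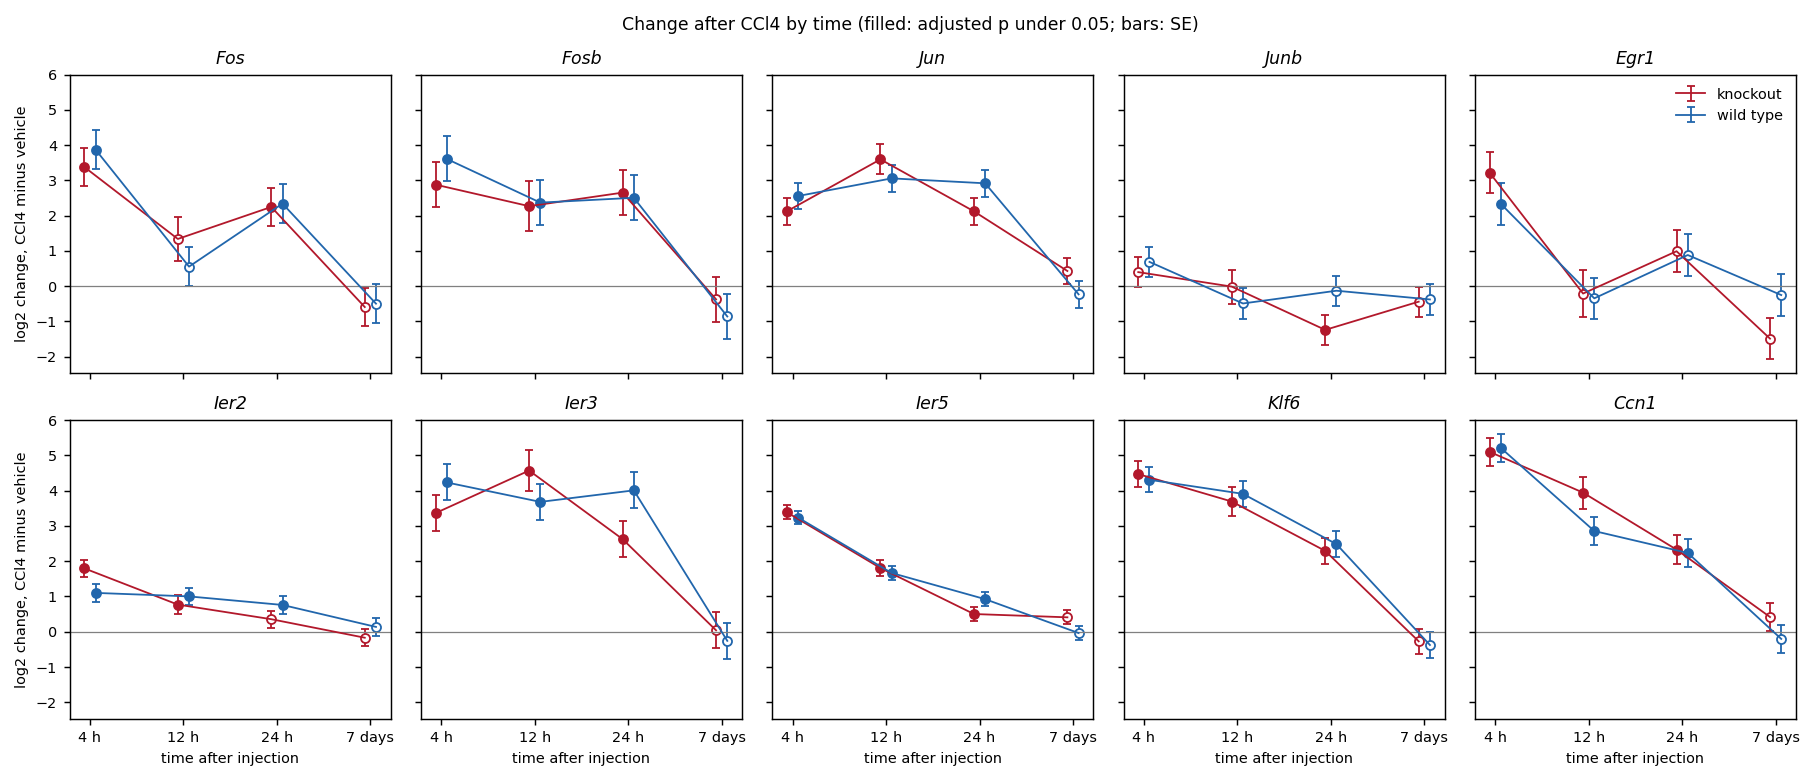
Log2 change of CCl4 minus vehicle (vertical) ± SE against time after injection (horizontal) for each gene in knockout (red) and wild type (blue), filled where the limma adjusted p is under 0.05. Fos, Fosb, Egr1, Ier2, Ier5, Klf6 and Ccn1 are highest at 4 h in both genotypes, and Jun and Ier3 stay high to 24 h in wild type. Junb is filled only for the lower knockout value at 24 h, and no value at 7 days is filled.

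The decline of the response was tested as the difference between the CCl4 effects at successive times. From 4 h to 12 h the effect fell for Egr1 (-3.43 ± 0.88), Ier2 (-1.03 ± 0.37) and Ier5 (-1.58 ± 0.29) in the knockout and for Fos (-3.32 ± 0.78), Egr1 (-2.68 ± 0.83), Ier5 (-1.57 ± 0.27) and Ccn1 (-2.36 ± 0.57) in wild type. These are 3 and 4 of 10 genes in knockout and wild type, where 12.1% and 16.4% of all genes were called lower. The Ier2 call was lost in 10 of 18 fits that left out 1 liver (limma adjusted p up to 0.109), and without knockout CCl4 replicate 1 of 12 h the knockout count was 5. The values of Jun (1.47 ± 0.57 in the knockout, 0.50 ± 0.54 in wild type) and Klf6 (-0.78 ± 0.54 and -0.40 ± 0.51 for knockout and wild type) were not called. From 12 h to 24 h only Ier5 in the knockout was called (-1.30 ± 0.29, limma adjusted p = 0.00322), which is 1 of 10 genes with 3.83% of all genes called lower. This call was lost with all 80 libraries (-0.73, limma adjusted p = 0.277) and in the fit of only the groups compared (0.0707). In wild type no gene was called by limma, and 3 had an unadjusted p under 0.05. By limma adjusted p 12.6% of all genes were called, which is not a share for the unadjusted count. From 24 h to 7 days the effect fell for 7 genes in each genotype. These were Fos, Fosb, Jun, Ier3, Klf6 and Ccn1 in both, Egr1 in the knockout (-2.48 ± 0.83) and Ier5 in wild type (-0.96 ± 0.27). By comparison 13.9% of all genes in the knockout and 19.2% in wild type were called lower. The falls ran from -1.69 (Jun) to -3.03 (Fosb) in the knockout and from -0.96 (Ier5) to -4.27 (Ier3) in wild type. The Egr1 call was lost without knockout CCl4 replicate 3 of 24 h (-2.12, limma adjusted p = 0.054) or replicate 4 of 7 days (-2.07, 0.0559), and the knockout Jun call with all 80 libraries (-1.69, 0.0749). Without knockout CCl4 replicate 2 or 4 of 24 h the knockout count stayed at 7. Without the mice numbered below 7000, 1 liver each is left in the wild-type CCl4 group of 7 days and the wild-type vehicle group of 24 h. None of the 7 wild-type genes was called then, at values from -0.67 (Ier5) to -3.18 (Fosb).

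The next question was whether the response differed between the genotypes. The interaction, the knockout effect minus the wild-type effect, was not called for any of the 10 genes at any time, and 1, 0, 0 and 0 of them had an unadjusted p under 0.05 at 4 h, 12 h, 24 h and 7 days. By limma adjusted p 0.00687%, 0.0%, 0.0% and 0.00687% of all tested genes were called at these times. The share of all genes with an unadjusted p under 0.05 was not counted. Mice numbered below 7000 were found in wild-type groups only. They gave 2 CCl4 livers of 12 h (replicate 2 among them), 4 vehicle livers of 24 h, and 4 CCl4 and 2 vehicle livers of 7 days. Genotype and mouse number therefore cannot be fully told apart at these times, here or in the levels compared below. The smallest p was that of Ier2 at 4 h, at 0.70 ± 0.35 (95% interval 0.01 to 1.39, limma adjusted p = 1). At 12 h it was Ccn1, at 1.09 ± 0.61 (-0.12 to 2.30, limma adjusted p = 1). At 24 h it was Ier3, at -1.38 ± 0.72 (-2.83 to 0.06, limma adjusted p = 0.936), and at 7 days it was Ier5, at 0.45 ± 0.27 (-0.10 to 0.99, limma adjusted p = 0.558). The intervals were wide, spanning 1.10 log2 units for Ier5 and 3.60 for Fosb at 4 h. For Klf6 at 4 h the interval ran from -0.85 to 1.18 around a difference of 0.16, and for Ccn1 from -1.25 to 1.03 around -0.11.

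**Figure D3:**
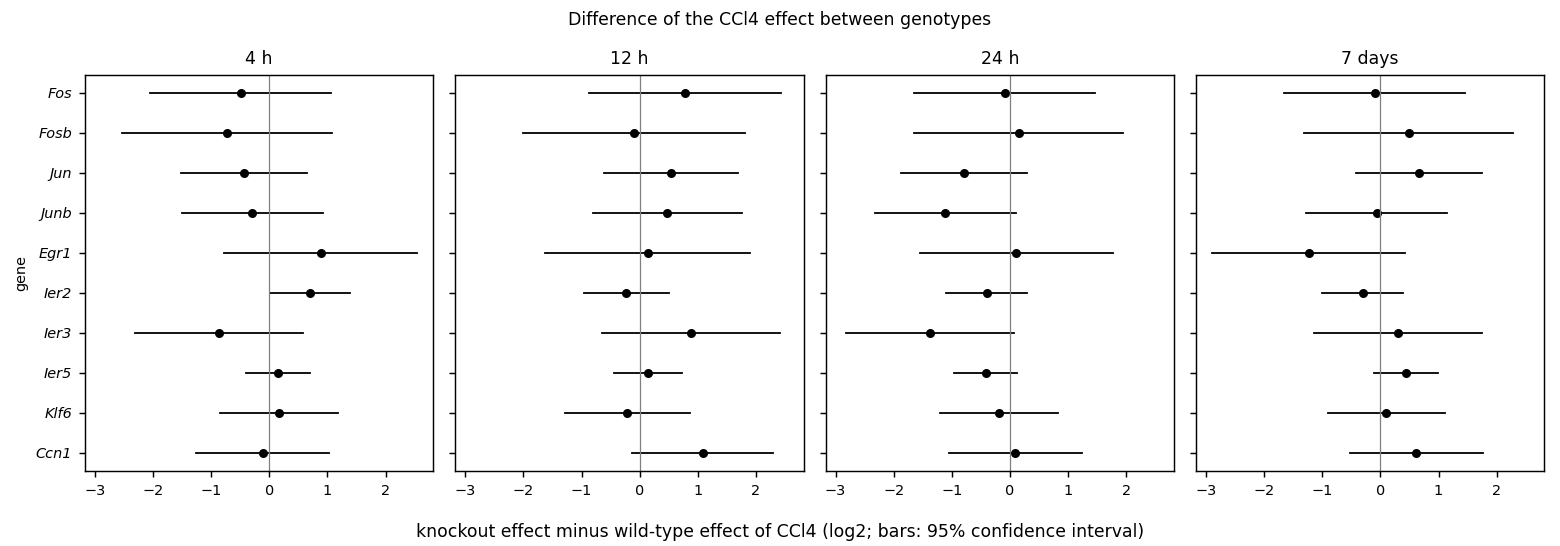
Difference of the CCl4 effect between the genotypes, knockout minus wild type, in log2 units (horizontal) with its 95% interval, for each gene (vertical) at each time. All intervals include 0 but that of Ier2 at 4 h (0.01 to 1.39), which was not called after adjustment.

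No difference in level between knockout and wild-type livers was called by limma for any of the 10 genes, in CCl4 or in vehicle livers. Among CCl4 livers 1, 1, 4 and 0 of the 10 had an unadjusted p under 0.05 at 4 h, 12 h, 24 h and 7 days, and among vehicle livers 2, 0, 0 and 2. By limma adjusted p 0.584%, 0.0206%, 0.0137% and 0.0% of all genes in CCl4 livers and 0.343%, 0.0%, 0.0% and 0.055% in vehicle livers were called. The share of all genes with an unadjusted p under 0.05 was not counted, so the unadjusted counts have no share to stand beside. The smallest p was that of Jun in vehicle livers of 4 h, which had 956.5, 1135.5, 1642, 2431 and 2173 normalized counts in knockout livers and 481, 447, 454, 1242 and 809 in wild-type livers. Knockout livers were mostly higher but overlapped the highest wild-type liver (1.32 ± 0.38, limma adjusted p = 0.108). In CCl4 livers of 12 h Ccn1 had 4304, 2070.0, 2027 and 587 in the knockout and 770.0, 2509.8, 648, 302 and 545 in wild type (1.31 ± 0.43, limma adjusted p = 0.333). This difference was called without wild-type replicate 2 (1.75, 0.0313) or knockout replicate 4 (1.85, 0.0335), and with all 80 libraries it was 0.49 (0.628). In CCl4 livers of 24 h all 10 genes had lower means on the log scale in the knockout, from -0.16 (Jun) to -1.43 (Ier3), in the group that holds the low replicates 2 and 4. The wild-type group holds a low liver as well, replicate 4, with 634.3 of Jun, 249.9 of Ier3 and 1057.2 of Klf6. The difference of Ier3 was -0.97 without knockout replicate 2, -0.82 without knockout replicate 4 and -1.84 without wild-type replicate 4. Without the knockout replicates 2 and 4 in turn, its interaction at 24 h was -0.92 and -0.77. Klf6 (-0.82 ± 0.36, limma adjusted p = 0.726) was the gene called when knockout replicate 5 was left out (-1.28, 0.0353).

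Vehicle livers also changed with time, and each CCl4 group is compared with the vehicle livers of its own time. An F test over the 4 times called 8 of 10 genes in knockout vehicle livers (all but Ier2 and Ccn1) and 3 in wild-type vehicle livers (Jun, Junb and Ier5), where 41.7% and 38.9% of all genes were called. Jun in vehicle livers had 956.5 to 2431, 206 to 951, 262 to 688 and 204 to 295 normalized counts at 4 h, 12 h, 24 h and 7 days in the knockout (limma adjusted p = 3.27e-07). Wild-type vehicle livers had 447 to 1242, 493 to 1161.5, 169 to 526 and 215.5 to 398 of Jun (limma adjusted p = 0.000866). Junb had 3929 to 5919 at 4 h and 1039 to 2035.5 at 7 days in the knockout and 2261 to 4553 and 653 to 1217 in wild type. Jun was highest at 4 h in the knockout and alike at 4 h and 12 h in wild type, and Junb at 4 h did not overlap Junb at 7 days in either genotype. Egr1 was called in the knockout (4.13e-05) and not in wild type (0.667), a difference that was not itself tested, with 229 to 1073.5 at 24 h and 2681 to 10078 at 7 days in knockout livers. The wild-type Ier5 call (0.046) was lost in 16 of 20 fits that left out 1 liver (up to 0.132), and the knockout calls of Fosb (0.0251) in 3 of 19 (up to 0.0745) and Ier5 (0.018) in 1 of 19 (0.0561). The knockout call of Klf6 was lost with all 80 libraries (limma adjusted p = 0.156) and that of Fosb with a pseudocount of 8 (0.183). The wild-type Ier5 call was also lost with all 80 libraries (0.151) and after quantile normalization (0.0556), and that of Jun without the mice numbered below 7000 (0.109).

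Levels between genes were compared only per kilobase of exon. At 4 h after CCl4 the means were highest for Klf6 (3069 ± 293 normalized counts per kilobase, SD, n = 5), Junb (2847.5 ± 695), Egr1 (2776 ± 973) and Jun (2376 ± 1248) in the knockout. They were highest for Junb (2331 ± 337), Klf6 (2291 ± 852), Ccn1 (2189 ± 1131) and Egr1 (1810.1 ± 519) in wild type. Within each of these quartets neighbours differed by less than their SD. Fos (594 ± 233 in the knockout, 445 ± 122 in wild type) and Fosb (16.6 ± 7.9 and 14.3 ± 12.0 for knockout and wild type) were the lowest. In vehicle livers of 4 h Junb was the highest, at 2125 ± 327 per kilobase in the knockout and 1495 ± 464 in wild type, while Ccn1 was at 52.2 ± 15.6 in the knockout and 55.6 ± 17.9 in wild type.

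Within groups the 10 genes varied together. After the group means were removed, all 45 pairs of genes had a positive correlation over the 78 livers. The median Pearson r was 0.369 and the range 0.015 (Junb with Ccn1) to 0.719 (Fos with Egr1). The closest pairs after Fos and Egr1 were Junb with Ier3 (0.683), Ier3 with Klf6 (0.634) and Jun with Ier3 (0.606). Without knockout CCl4 replicate 1 of 12 h, high for Fos, Fosb and Egr1, the median was 0.361, Fos with Egr1 had 0.675, and Junb with Ccn1 turned to -0.046. The values describe genes read in the same libraries, which share their depth. Livers of 1 group also differed in how near they lay to vehicle over all genes. Pairs of other genes were not looked at, so whether such correlations are particular to these 10 was not tested. The spread within groups differed by gene, with a residual SD on the log2 scale of 0.311 for Ier5 and 0.396 for Ier2, against 0.898 for Fos, 0.966 for Egr1 and 1.03 for Fosb, and a median of 0.334 over all genes.

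**Figure D4:**
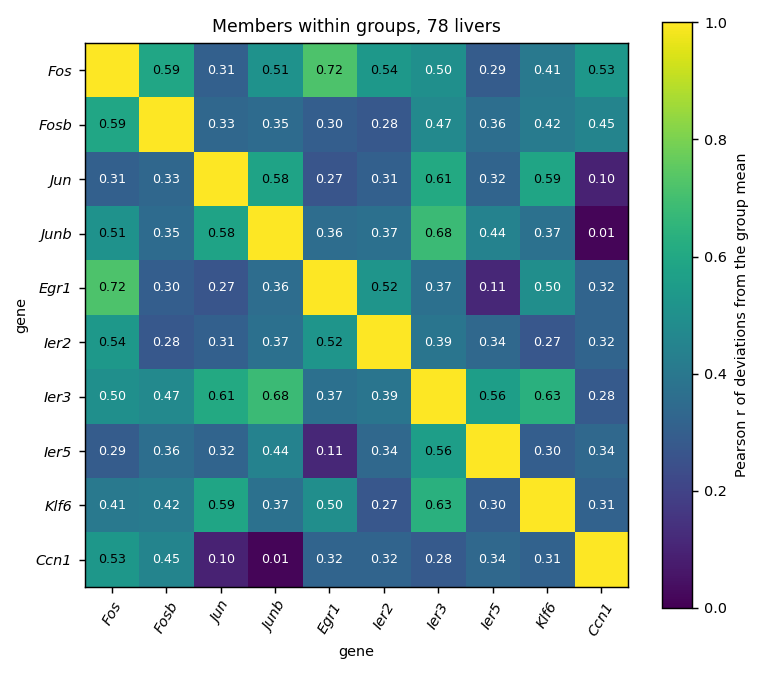
Pearson r between each pair of the 10 genes (both axes) of the deviations from the group mean of log2(value + 1), over 78 livers in 16 groups, on a colour scale from 0 to 1. All pairs are positive, Fos with Egr1 and Junb with Ier3 are the closest, and Junb with Ccn1 and Jun with Ccn1 are the weakest.

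Other genes of the same class rose in part. Of 27 further immediate early genes measured (Fosl1, Jund and Egr2 were not analysed here), 13, 13, 16 and 0 rose and 0, 1, 1 and 0 fell in the knockout at 4 h, 12 h, 24 h and 7 days. In wild type 18, 12, 16 and 1 rose and 0, 2, 1 and 0 fell. Their median change at 4 h was 0.91 in the knockout and 1.36 in wild type. Of all genes 21.1%, 23.6%, 21.1% and 0.309% were called higher in the knockout and 23.1%, 29.0%, 26.2% and 0.0275% in wild type. Atf3, a stress-induced AP-1 partner, changed by 6.70 ± 0.58 in the knockout and 6.94 ± 0.58 in wild type at 4 h, and by 8.13 ± 0.65 and 7.76 ± 0.58 at 12 h for knockout and wild type. Maff, a small MAF factor, changed by 5.48 ± 0.51 in the knockout and 5.02 ± 0.51 in wild type at 4 h, and Srf, which binds the CArG box, by 1.83 ± 0.18 and 1.97 ± 0.18 for knockout and wild type. The growth regulator Myc rose at 12 h (5.60 ± 0.51 in the knockout, 5.38 ± 0.45 in wild type) and 24 h (3.67 ± 0.45 and 3.69 ± 0.45 for knockout and wild type). The only falls were those of Zfp36, whose product binds AU-rich elements and promotes mRNA decay (-1.12 ± 0.29 at 24 h in the knockout, and -0.95 ± 0.29 at 12 h and -1.26 ± 0.29 at 24 h in wild type), and of Errfi1. Errfi1 encodes an inhibitor of EGF receptor signalling and fell at 12 h (-0.99 ± 0.37 in the knockout, -1.27 ± 0.33 in wild type). Errfi1 was also the 1 gene that rose at 7 days in wild type (1.64 ± 0.33).

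The next lists stand beside the same shares of all genes called higher. These were 21.1%, 23.6%, 21.1% and 0.309% in the knockout and 23.1%, 29.0%, 26.2% and 0.0275% in wild type. Of 17 upstream kinases and factors 6, 6, 3 and 0 rose and 1, 1, 1 and 0 fell in the knockout, and 7, 8, 7 and 0 rose and 1, 4, 2 and 0 fell in wild type. Their median change at 4 h was 0.12 in the knockout and 0.17 in wild type. Among the genes called higher was Mrtfa, a cofactor of serum response factor (1.44 ± 0.18 in the knockout and 1.64 ± 0.18 in wild type at 4 h). Another was the ERK kinase gene Map2k1 (0.80 ± 0.10 and 0.85 ± 0.10 for knockout and wild type at 4 h). Of 15 measured AP-1 target and partner genes 8, 7, 9 and 0 rose and 1, 0, 0 and 0 fell in the knockout, and 7, 8, 11 and 0 rose and 1, 0, 0 and 0 fell in wild type. The fall in both was that of Ccnd1, the cyclin of the G1 phase, at 4 h (-1.74 ± 0.34 in the knockout, -1.81 ± 0.34 in wild type), which rose at 24 h (2.75 ± 0.34 and 2.30 ± 0.34 for knockout and wild type). The EGF receptor ligand Hbegf rose at 4 h (5.65 ± 0.38 in the knockout, 5.23 ± 0.38 in wild type). Sprr1a, a squamous differentiation gene known to respond to AP-1, rose by 10.55 ± 1.03 and 9.51 ± 1.03 at 4 h and 14.51 ± 1.15 and 11.97 ± 1.03 at 12 h, for knockout and wild type. The collagenase Mmp13 rose by 5.93 ± 0.61 and 5.86 ± 0.61 at 24 h, for knockout and wild type. The fitted size of such changes rests on low vehicle values and on the pseudocount. Of 9 measured Hippo and YAP targets other than Ccn1, 2, 3, 5 and 0 rose in the knockout and 1, 4, 5 and 0 in wild type, and none fell. At 4 h, when Ccn1 had its largest change, Amotl2 (0.53 ± 0.18 in the knockout, 0.55 ± 0.18 in wild type) was called in both genotypes and F3 in the knockout (0.88 ± 0.35). Ajuba (1.67 ± 0.30 and 1.60 ± 0.27) and Tgfb2 (3.98 ± 0.59 and 3.28 ± 0.53, knockout and wild type) were called at 12 h.

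Cell type markers were called at 12 h and 24 h beside these genes, and fewer at 4 h. Of all 14558 tested genes 5651, 6805 and 6424 were called in the knockout at 4 h, 12 h and 24 h. Of these 54.5%, 50.5% and 47.8% were higher. In wild type 6349, 8505 and 7458 genes were called, 53%, 49.6% and 51.2% of them higher. Several of the marker counts below are near these shares. Hepatocyte markers fell in 2, 7 and 6 of 8 genes at 4 h, 12 h and 24 h in the knockout and in 1, 8 and 4 in wild type. Their sums at 12 h were 2168323 to 3936198 in knockout CCl4 livers against 4677042 to 5974619 with vehicle, and 1731108 to 3544895 in wild-type CCl4 livers against 4569172 to 6141767.5 with vehicle. Monocyte and macrophage markers rose in 0, 2 and 6 of 8 genes in the knockout and in 0, 2 and 5 in wild type, where 2 fell at 12 h and 1 at 24 h. Their sums at 24 h were 7402 to 21435 in knockout CCl4 livers against 2161 to 7784 with vehicle, and 17904 to 27646 in wild-type CCl4 livers against 7628 to 14114 with vehicle. Kupffer cell markers fell in 0, 4 and 2 of 7 genes in each genotype, with 1 higher at 24 h in the knockout, and sinusoidal endothelial markers fell in 0, 4 and 0 of 8 in the knockout and 0, 8 and 5 in wild type. Cholangiocyte markers rose in 2, 3 and 2 of 5 genes in the knockout and 3, 3 and 1 in wild type. Neutrophil markers rose in 2 of 6 at 24 h in each genotype and in none at 4 h or 12 h. Stellate cell markers fell in 0, 1 and 1 of 8 in the knockout and 0, 3 and 2 in wild type, and 1 of 8 T and B cell markers rose in the knockout at 12 h and none was otherwise called. No list had a gene at 0 in every liver of a group. At 4 h hepatocyte markers (2 of 8 lower in the knockout, 1 in wild type) and cholangiocyte markers (2 of 5 higher in the knockout, 3 in wild type) were called. No marker of the other lists was called at 4 h in either genotype. The part of these shifts in the changes at 4 h, 12 h and 24 h was not tested.

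The average profile of the 10 genes over the 16 group means was followed most closely by Klf6 (Pearson r = 0.969), Fos (0.954) and Fosb (0.951), and least by Egr1 (0.718) and Junb (0.621). Each of the 10 is part of this average, which raises its own r, so these values are not comparable with those of other genes. Outside the 10, the genes nearest to the average profile were Ralgds (0.9859), Cdca4 (0.9791), Maff (0.9761), Dync1li1 (0.9750), Fxr1 (0.9747) and Mafk (0.9717). Ralgds encodes an exchange factor for RAL GTPases, and Mafk, like Maff, a small MAF factor. These r values run over 16 group means that share their vehicle livers and libraries, and describe likeness of pattern only.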

How the data were processed

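RNA of whole liver from 80 mice, numbered separately in the labels, was sequenced from stranded mRNA libraries made from 500 ng of total RNA. The submitters' processing notes name STAR, HTSeq, DESeq2 and GRCm38, without versions, and the strand setting of the counting is not given in the sources used here. The deposited values are a signal, the authors' normalized counts per gene, in which each library is divided by 1 factor. The values were whole multiples of what 1 read is worth (within 0.01, in 100% of values). This gave 18648557 to 64487370 reads per library over the 14560 genes of the table, which leaves out reads in other genes.

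The values were tested as log2(value + 1) with limma 3.58.1 in R 4.3.3, in 1 fit of 16 group means to 78 libraries with a trended prior, for the 14558 of 14560 genes that reached 10 normalized counts in 5 or more libraries. The fit had 26 contrasts and 2 F tests, two-sided, with Benjamini-Hochberg adjustment over all genes per contrast, and was tested on simulated data. Spread was measured between livers of separate mice. The 10 genes and the other gene and marker lists were chosen with earlier results of these data known. Every one of the 10 is named. Of other lists up to 4 called genes per comparison are named by adjusted p, and Zfp36, Errfi1, and Ccnd1 at 4 h were named after their values were seen. The genes nearest in pattern are the 6 with the highest r and a mean of at least 100 in 1 group. Alternatives were the pseudocount (8), the filter on low values, quantile normalization, the libraries and groups fitted, and the replicate number as a block. Gene positions are from GENCODE M21 and promoters from RefSeq.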

Additional observations from a re-analysis of the deposited data

Results flagged for a closer look

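Among 160 sets of 4 or 5 livers (10 genes in 16 groups), 6 had 1 liver far from the others by Dixon's gap. Chance gives about 1 in 20, so 6 of 160 is no more than chance would give. Replicate 1 of the knockout CCl4 livers of 12 h was far above the others for Fos (1611.4 normalized counts) and for Egr1 (10405.6). Over all genes other than the 10, the group nearest to this liver was that of knockout CCl4 livers of 24 h (r 0.974, against 0.968 with its own group). This was not particular to it. Knockout vehicle replicate 3 of 12 h was nearest to wild-type vehicle livers of 7 days (r 0.985, own group 0.965). Wild-type vehicle replicate 1 of 12 h was nearest to wild-type CCl4 livers of 7 days (r 0.979, own group 0.966). For Jun, replicate 4 of the wild-type CCl4 livers of 24 h was far below the others (634.3), and replicate 4 of the wild-type vehicle livers of 7 days far above them (397.9). For Junb, replicate 1 of the knockout vehicle livers of 24 h was far above the others (3963.1), and without it the lower call of Junb at 24 h was lost. For Ier3, replicate 3 of the wild-type vehicle livers of 7 days was below the others (18.6).

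The 2 libraries left out of the comparisons of 78 libraries hold values above all kept knockout vehicle livers of 12 h. The library labelled knockout vehicle replicate 1 had 14.2 normalized counts of Fosb, 5728.0 of Jun, 467.1 of Ier3, 968.2 of Ier5, 6297.0 of Klf6 and 868.7 of Ccn1. The library labelled knockout CCl4 replicate 5 had 470.1 of Ier5, and for no other of the 10 genes was it above them.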

How the results depend on the processing

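Over 126 gene results, the alternatives other than leaving out 1 library kept direction and call in 891 cases, lost the call in 30, gained it in 1 (Junb in wild type at 4 h, in the fit of its 2 groups) and turned the direction in 5. Leaving out 1 library kept both in 1519 cases, lost the call in 46, gained it in 6 and turned the direction in 19. The cause of these changes was not tested, except that fewer livers enter where libraries are left out.

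With all 80 libraries, 6 genes instead of 3 had a smaller knockout effect at 12 h than at 4 h, 0 instead of 1 changed in effect between 12 h and 24 h in the knockout, and the interaction of Ccn1 at 12 h turned to -0.30. In fits of only the groups compared, 5 instead of 8 genes were called in the knockout at 24 h, 0 instead of 1 for the knockout effect between 12 h and 24 h, and 1 instead of 0 for that effect in wild type. The same wild-type count was 1 with a pseudocount of 8, with a filter of 50 normalized counts and after quantile normalization, which also turned Ier3 at 7 days in the knockout to -0.067. Without mice numbered below 7000, 2 instead of 8 genes were called in wild type at 24 h and 0 instead of 7 for the wild-type effect between 24 h and 7 days, with 1 liver left in the CCl4 group of 7 days and in the vehicle group of 24 h, each assumed to vary like the other groups. The wild-type changes of Fos at 12 h and Ier2 at 7 days turned to -0.32 and -0.16, and the interaction of Ier3 at 24 h to 0.34.

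With 1 library left out, the genes called numbered 2 to 5 among wild-type vehicle livers over time, 0 to 2 for the wild-type and 1 to 4 for the knockout effect between 12 h and 24 h, and 2 to 5 for the knockout effect between 4 h and 12 h. They numbered 0 to 1 for knockout against wild type in CCl4 livers at 12 h and likewise, 0 to 1, at 24 h. Uncalled changes that turned direction ranged in wild type from -0.021 to 0.84 for Fos at 12 h, -0.41 to 0.18 for Junb at 24 h, -0.62 to 0.18 for Egr1 at 7 days, -0.028 to 0.27 for Ier2 at 7 days and -0.16 to 0.11 for Ier5 at 7 days. In the knockout they ranged from -0.67 to 0.45 for Junb at 12 h, -1.06 to 0.16 for Egr1 at 12 h and -0.20 to 0.35 for Ier3 at 7 days.

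Same-numbered replicates deviated together in 8 of 38 pairs (r over 0.1, range -0.274 to 0.308), so the numbers were not taken to pair the livers. With the replicate number as a block none of the 126 gene results changed its call, and 4 instead of 3 genes were called for the knockout effect between 4 h and 12 h and for wild-type vehicle livers over time. Quantile normalization moved the share of higher genes among all called ones in the knockout to 55.6%, against 45.3% without it, for the effect between 4 h and 12 h, and to 38.4%, against 24.4%, between 12 h and 24 h. The count test planned with edgeR was not run, so all tests rest on the normalized values. At 3 reads, worth 1.16 to 6.02 normalized counts, Fosb in vehicle livers is near the limit of these libraries.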
